A study of Mus musculus with 2 samples.

Results

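Collagens and laminins are the structural proteins of the extracellular matrix, and the genes described here are the 48 collagen and laminin genes counted in nuclei of spinally projecting mouse hindbrain neurons. They were chosen by symbol, as every gene named Col, a number, a and a number, or Lama, Lamb or Lamc and a digit, with at least 20 UMIs (unique molecular identifiers, the counted transcripts) over both libraries. Of the 23912 genes in the tables, 55 had such a symbol (44 collagens and 11 laminins), and 39 collagens and 9 laminins reached the minimum. The 7 below it were Col3a1, Lama5, Col6a4, Lamb2, Col10a1, Col6a2 and Col1a1. Col6a4 with 18 UMIs and Lama5 with 17 lay just outside, and Col6a5 with 20 and Col13a1 and Col9a1 with 24 each lay just inside.

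The study took TRAP2 mice of 8 to 12 weeks, a line in which neurons active in a chosen time window can be marked for good, and injected a retrograde AAV for the nuclear protein H2B-GFP into their lumbar cord. Nuclei of descending hindbrain neurons activated by pain were sorted by FACS and their nuclear RNA was read with the 10x 3′ v3 kit. The 2 treatments are named SNI with brush and hot water bath, and the labels do not spell out SNI. Both carried the TRAP2 alleles and the same virus. Each treatment has 1 library made from pooled hindbrains, so no replicate exists, no p-value was computed, and each ratio compares these 2 libraries. Intervals are exact 95% intervals that cover counting error only, and nuclei of 1 library are not independent samples of a treatment.

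The SNI with brush library held 288 nuclei with 9164 to 142954 UMIs each, and the hot water bath library held 425 nuclei with 10878 to 96057 UMIs. They shared no barcode. In the SNI with brush library 15 nuclei had more UMIs of liver genes than of neuron markers, against 0 in the other library, and they were left out together with 2 and 3 doublets, which left 271 and 422 neuronal nuclei. All of these held 3 or more UMIs of the neuron markers Rbfox3, Snap25, Syt1 and Snhg11. A nucleus was called glutamatergic or inhibitory by its own transmitter UMIs: at least 3 in all of Slc17a6, Slc17a7 and Slc17a8 and of Slc32a1, Gad1, Gad2 and Slc6a5, with at least 75% of 1 kind, and nuclei with 10 or more Tph2 UMIs were set apart. By this rule 123 SNI with brush nuclei were glutamatergic, 104 inhibitory and 3 Tph2-rich, and 251, 60 and 26 hot water bath nuclei. The other 41 and 85 nuclei had mixed or too few transmitter UMIs, and 40 and 50 nuclei lay near the limits of these classes. Collagens and laminins are plentiful in vascular cells, so 10 markers of vascular cells and fibroblasts were summed: they stood at 14.04 CPM (counts per 1000000 UMIs) in SNI with brush neurons and 6.13 CPM in hot water bath neurons, with none of the 10 at 0, and 10 and 5 nuclei held 3 or more of their UMIs. The liver markers stood at 41.5 and 0.186 CPM, and oligodendrocyte markers at 186 and 78.3 CPM. All these lists had the larger sum in SNI with brush nuclei, and their part in the results was not tested.

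Collagen chains join in threes to a triple helix, and families differ in what the helices build: fibrils (types I, II, III, V, XI, XXIV and XXVII), molecules that sit on fibrils (such as IX, XII, XIV, XVI and XIX), the mesh of basement membranes (type IV) and proteins anchored in the cell membrane (such as XIII, XXIII and XXV). Laminins are cross-shaped trimers of 1 alpha, 1 beta and 1 gamma chain that line basement membranes and bind integrins and dystroglycan. In mice, type XIX collagen made by interneurons is known to help inhibitory synapses form, and type XXV collagen is needed for motor axons to reach muscle. Transcripts in a nucleus say nothing of whether the protein is made. Levels are compared between nuclei and libraries here, and UMI totals of different genes are ranked only as numbers counted.

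The sequences just upstream of 3 members are shown, because Col25a1 and Col11a1 gave the most UMIs and Col27a1 was among the most concentrated in both libraries. Each is the stretch of 250 bases before the RefSeq transcription start, on the plus strand of GRCm38.p6, and overlaps no annotated exon. Capitals mark the motifs CCAAT and GGGCGG, a GC box, on either strand. For Col25a1 (chr3:130180595-130180844) and Col27a1 (chr4:63215162-63215411) the stretch lies inside the longer GENCODE gene, and for Col11a1 (chr3:114030290-114030539) it ends 1 base before the gene.
Col25a1: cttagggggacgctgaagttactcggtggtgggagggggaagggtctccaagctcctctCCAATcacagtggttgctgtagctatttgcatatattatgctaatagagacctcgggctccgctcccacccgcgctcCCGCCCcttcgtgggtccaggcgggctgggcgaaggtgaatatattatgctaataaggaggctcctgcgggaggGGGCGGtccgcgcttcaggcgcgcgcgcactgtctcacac
Col11a1: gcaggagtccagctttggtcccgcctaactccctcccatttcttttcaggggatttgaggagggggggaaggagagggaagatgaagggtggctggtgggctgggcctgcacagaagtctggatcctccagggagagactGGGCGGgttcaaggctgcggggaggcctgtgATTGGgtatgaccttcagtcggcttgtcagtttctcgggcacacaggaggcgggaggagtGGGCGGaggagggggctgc
Col27a1: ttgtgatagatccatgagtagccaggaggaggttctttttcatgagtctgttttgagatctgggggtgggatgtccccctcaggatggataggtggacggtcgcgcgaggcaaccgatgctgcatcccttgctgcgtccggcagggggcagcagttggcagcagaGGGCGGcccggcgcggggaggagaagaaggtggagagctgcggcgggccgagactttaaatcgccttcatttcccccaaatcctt
Both motifs occur in the windows of Col25a1 and Col11a1, and GGGCGG alone in that of Col27a1. Of the 34 members with an entry in the RefSeq table, 20 held GGGCGG and 12 held CCAAT, against 32.9% and 34.5% of 27025 windows of the same length. TATAAA was found in 3 of them, against 13% of all windows. The median number of CpG pairs was 10.0 in the 34 members and 6.0 in all windows. Members concentrated in both libraries had a median of 10.0 (15 genes) and those concentrated in neither 11.5 (6 genes). These matches are a description of letters, not of bound sites.

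Most of these genes had 50% of their UMIs in few nuclei, though many had a UMI in many more. For each gene the smallest number of nuclei that holds 50% of its UMIs was set against the number expected if its UMIs fell on nuclei at random in proportion to their depth, and a gene with at least 20 UMIs in a library counted as concentrated at 0.5 times that number or less. The last nucleus enters the ratio in part, so that a ratio can lie below the whole number of nuclei divided by the expected one. By this rule 28 of 39 members were concentrated in the SNI with brush library and 23 of 38 in the hot water bath library, which is 71.8% and 60.5%. Over all genes the shares were 10.9% of 15493 and 7.08% of 15540. In both libraries 19 of 36 members were concentrated, or 52.8%, against 5.18% of 14649 genes. Fewer passed when nuclei with any UMI were counted, at 0.5 times the expected number or less. These were 13 of 39 and 4 of 38 members, against 3.36% and 1.63% of all genes. The median ratio of observed to expected nuclei was 0.352 and 0.385 for the members, and 0.884 and 0.896 for all genes.

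Members with few and with many UMIs stood above the background. In the SNI with brush library 13 of 20 members with 20 to 100 UMIs were concentrated (20.8% of all such genes), 11 of 14 with 100 to 500 (7.09%) and 4 of 5 with 500 or more (5.49%). In the hot water bath library the counts were 11 of 22 (11.3%), 7 of 8 (5.25%) and 5 of 8 (5.52%). With every nucleus thinned to 9000 UMIs, 13 of 21 and 3 of 16 members were concentrated, against 4.67% and 2.8% of all genes. Most members then read in hot water bath were thus not concentrated at that depth, unlike in SNI with brush. Of the 36 members that could be read in both libraries, 6 were concentrated in the SNI with brush library alone (Col4a3, Col4a6, Col5a1, Col14a1, Col15a1 and Lamb1), 3 in the hot water bath library alone (Lama2, Col22a1 and Col23a1) and 8 in neither. Over the 14649 genes read in both, 3.56% were concentrated in the SNI with brush library alone and 1.47% in the hot water bath library alone. Across these 36 members, which share libraries and depth, the ratios of the 2 libraries had a Pearson r of 0.60 and a Spearman rho of 0.47.

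**Figure D1:**
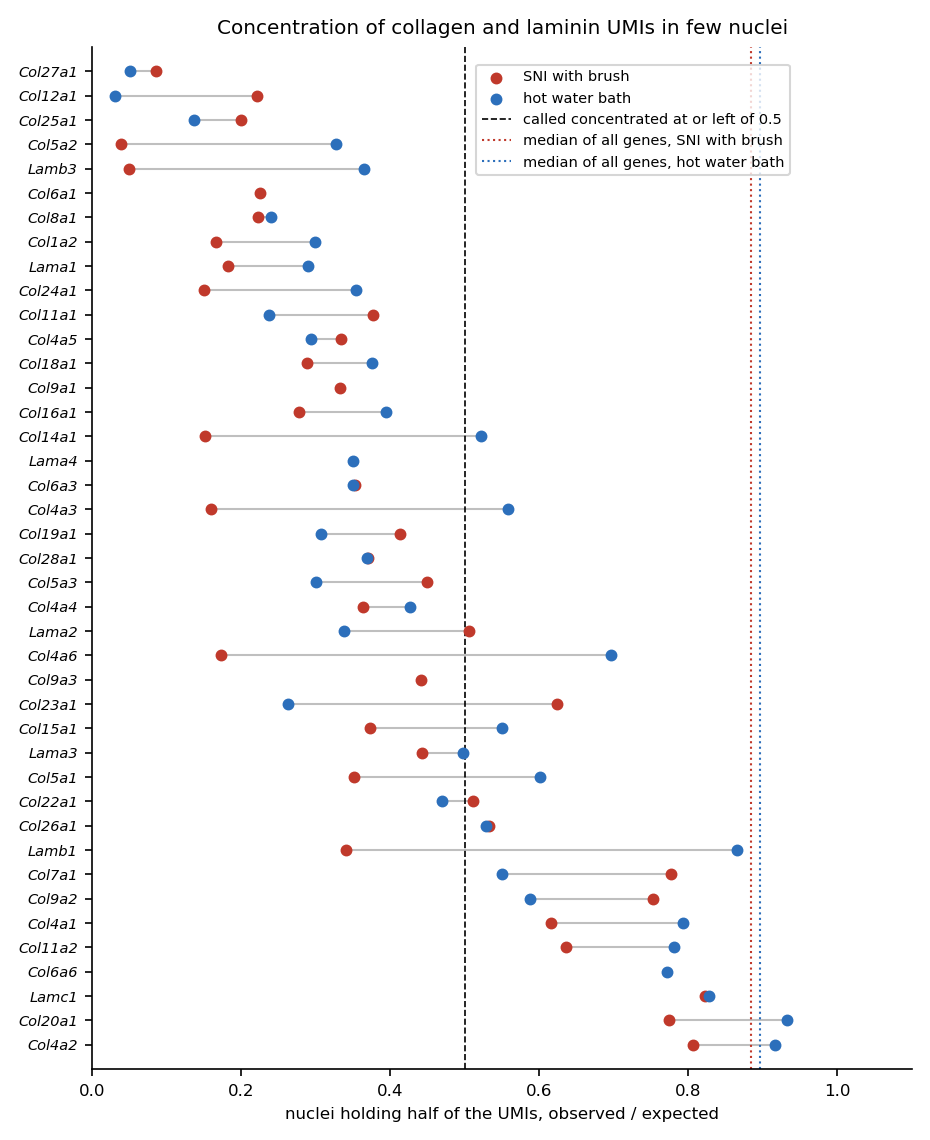
Each row is a collagen or laminin gene with at least 20 UMIs in a library, and each point is the number of nuclei that holds 50% of its UMIs, divided by the number expected from depth (x axis, no unit; SNI with brush red, hot water bath blue). Points at or left of the dashed line at 0.5 are concentrated: 28 and 23 members, whereas the medians of all genes, dotted, lie at 0.884 and 0.896.

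By family, 6 of 8 fibril-forming collagens were concentrated in both libraries, 3 of 7 fibril-associated ones and 3 of 7 network-forming ones, among the members readable in both. Of the laminins, 2 of 3 alpha chains (Lama1 and Lama3), 1 of 2 beta chains (Lamb3) and 0 of 1 gamma chains were. The 8 members concentrated in neither library were Lamc1, Col4a1, Col4a2, Col7a1, Col9a2, Col11a2, Col20a1 and Col26a1, and the 3 with most UMIs among them are described here. Lamc1, the gamma chain common to most laminins, needed 44 SNI with brush nuclei (53.5 expected) and 87 hot water bath nuclei (104 expected) for 50% of its UMIs. Col4a2, the partner of Col4a1 in the common type IV network, needed 47 (57.7 expected) and 97 (105 expected), and Col4a1 needed 28 (45.2 expected) and 70 (88.1 expected). Lamc1, Col4a1 and Col4a2 are chains that vascular cells make too, and no more than 2 nuclei of any of their sets held 3 or more UMIs of the vascular markers. Among concentrated members that number was at most 3 in either library, and in none did such nuclei make up most of the set. The sets of 12 of 28 SNI with brush and 7 of 23 hot water bath members held any such nucleus. Only 10 and 5 nuclei of the libraries met this mark, so for large sets a low number was fixed in advance. The part of vascular RNA was not tested.

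Col25a1, the membrane collagen, was the clearest case among the members with many UMIs. It gave 948 UMIs in SNI with brush nuclei and 1626 in hot water bath nuclei, at 87.5 CPM (82.1 to 93.3) and 101 CPM (95.8 to 106). Yet 158 of 271 and 268 of 422 nuclei held none, and 13 and 17 nuclei held 50%, where 61.1 and 118 were expected. The highest single nuclei held 65, 61 and 54 UMIs and 70, 69 and 68 UMIs. These nuclei were of several classes: 6 glutamatergic, 5 inhibitory and 2 mixed in the SNI with brush library, and 10 glutamatergic, 2 inhibitory, 1 Tph2-rich and 4 mixed in the hot water bath library. Over whole classes the level was lower in glutamatergic than in inhibitory nuclei, 69.8 and 110 CPM in SNI with brush (log2 ratio -0.66, -0.87 to -0.46) and 89.0 and 141 CPM in hot water bath (-0.66, -0.85 to -0.47). Over nuclei with transmitter UMIs of 1 kind only, the ratio was -0.24 in each library. Col25a1 (ENSMUSG00000058897) lies at chr3:130131501-130599877 on the plus strand of mm10.

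**Figure D2:**
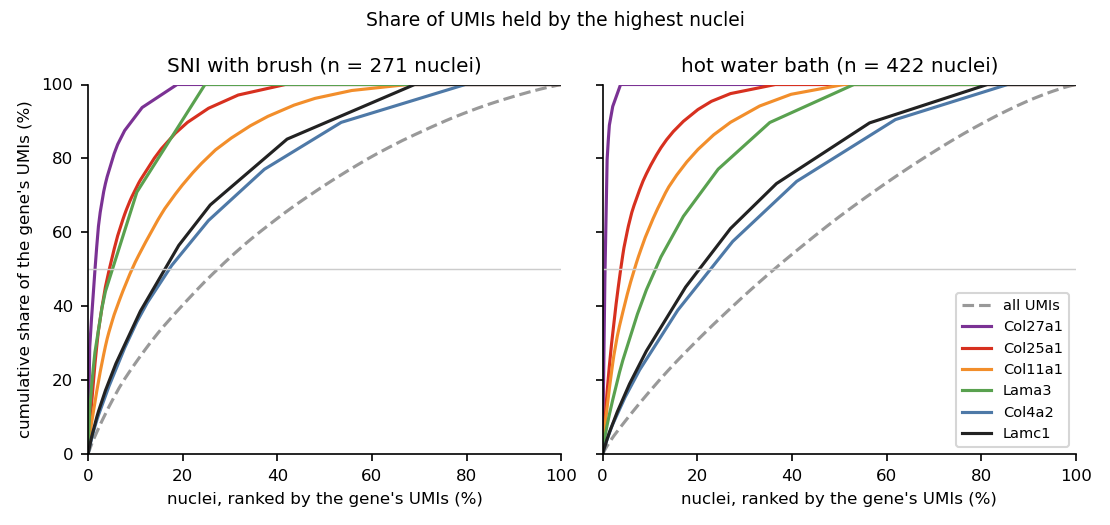
The y axis gives the share of a gene's UMIs (%) held by the nuclei ranked highest for that gene (x axis, % of nuclei), for SNI with brush on the left and hot water bath on the right, and the dashed line does the same for all UMIs. Col27a1 and Col25a1 pass 50% in 5 and 13 of 271 nuclei and in 3 and 17 of 422 nuclei, whereas Lamc1 and Col4a2 run closest to the dashed line.

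Col11a1, a chain of type XI collagen known for starting cartilage fibrils, gave more UMIs than any other member, 1972 in SNI with brush nuclei and 1770 in hot water bath nuclei. It stood at 182 CPM (174 to 190) and 110 CPM (104 to 115). In the SNI with brush library 26 nuclei held 50% of its UMIs (66.9 expected), 16 of them glutamatergic, 8 inhibitory and 2 mixed. In the hot water bath library 29 did (119 expected), 12 glutamatergic, 5 inhibitory, 11 Tph2-rich and 1 mixed, and the 3 highest nuclei, with 61, 60 and 57 UMIs, were all Tph2-rich. Tph2 encodes the enzyme that makes serotonin in the brain.

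In the hot water bath library a small class gave a large share of the Col11a1 UMIs. The 26 Tph2-rich nuclei held 466 UMIs, or 26.3%, at 425 CPM (388 to 466), with a UMI in 24 of them, a median of 11 and a highest of 61. Glutamatergic nuclei stood at 83.8 CPM (78.2 to 89.6) and inhibitory ones at 147 CPM (131 to 164), a log2 ratio of -0.81 (-1.001 to -0.62). In SNI with brush nuclei the 2 classes were level, at 197 CPM (186 to 209) and 187 CPM (174 to 202), with 0.08 (-0.06 to 0.21), and the 3 Tph2-rich nuclei held 9 UMIs at 59.5 CPM (27.2 to 113). Col11a1 (ENSMUSG00000027966) lies at chr3:114030540-114220718 on the plus strand. Its partner chain Col11a2 was concentrated in neither library.

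Other members leaned to Tph2-rich nuclei with far fewer UMIs. Col5a3, a chain of type V collagen, had 20 of its 43 hot water bath UMIs there (18.3 CPM, 11.1 to 28.2), and 3 of its 47 SNI with brush UMIs. Col7a1, which anchors skin to its basement membrane, had 22 of 50 hot water bath UMIs there (20.1 CPM, 12.6 to 30.4). In SNI with brush it had 2 UMIs there, 10.0% of its UMIs (13.2 CPM, 1.60 to 47.8), and it was concentrated in neither library. Without its highest nucleus Col5a3 stood at 0.505 times the expected number of nuclei in SNI with brush, just past the limit, and at 0.471 against 0.301 in the hot water bath library.

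Col27a1, a fibril collagen of cartilage, was among the narrowest members in both libraries. Against the number of nuclei expected, Col5a2 and Lamb3 were narrower in SNI with brush, and Col12a1 in hot water bath. It gave 321 UMIs in SNI with brush nuclei and 118 in hot water bath nuclei, and 5 nuclei (46.9 expected) and 3 nuclei (42.3 expected) held 50%. All 8 were glutamatergic. The 5 SNI with brush nuclei held 93, 24, 22, 21 and 20 UMIs, and the 3 hot water bath nuclei 28, 28 and 19, where a further nucleus with 19 followed. Leaving out the nucleus with 93 UMIs gave 0.139 times the expected number, against 0.0859 with it. Glutamatergic nuclei stood at 48.5 CPM (42.9 to 54.5) and inhibitory ones at 8.69 CPM (5.94 to 12.3) in SNI with brush, a log2 ratio of 2.46 (1.95 to 3.06), and at 10.7 and 0.932 CPM in hot water bath, 3.21 (1.63 to 6.59), from 108 and 2 UMIs. Col27a1 (ENSMUSG00000045672) lies at chr4:63214004-63334991 on the plus strand.

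The same nuclei carried 2 more members and a transporter. All were deeper than the median glutamatergic nucleus of their library, and the UMIs given here are not scaled for depth. The 5 SNI with brush nuclei had 112609, 58000, 55000, 49542 and 111126 UMIs in all (median 37372). The 3 hot water bath nuclei had 80761, 61636 and 42702 (median 38995). In the order of the Col27a1 counts above, the 5 SNI with brush nuclei held 32, 5, 23, 5 and 7 UMIs of Col12a1, a collagen that binds to fibrils, and 4, 7, 23, 19 and 24 of Lama1, the alpha chain of the first laminin of the embryo. The nucleus with 23 UMIs of each also held 3 UMIs of the vascular markers. The 3 hot water bath nuclei held 44, 12 and 1 UMIs of Col12a1 and 3, 7 and 17 of Lama1. Neither gene was limited to these nuclei. Of the other SNI with brush and hot water bath nuclei, 19 and 5 held 3 or more Col12a1 UMIs, and 21 and 14 held 3 or more Lama1 UMIs. The 5 and 3 nuclei held 40.0% and 63.3% of all Col12a1 UMIs, and 28.2% and 17.5% of all Lama1 UMIs. Slc17a7, the vesicular glutamate transporter VGLUT1, had 12, 12, 3, 4 and 25 UMIs in the 5 nuclei and 23, 5 and 7 in the 3. Of the other 266 SNI with brush nuclei 14 held, and of the other 419 hot water bath nuclei 3 held, 3 or more Slc17a7 UMIs. Slc17a6, also of the class rule, had 15, 7, 6, 2 and 7 UMIs in the 5 nuclei and 4, 2 and 8 in the 3. It was common elsewhere, with 3 or more UMIs in 124 and 269 of the other nuclei. The secreted phosphoprotein gene Spp1 had 26, 5, 1, 5 and 27 UMIs in the 5 and 15, 7 and 29 in the 3. It was not limited to them: 33 of the other SNI with brush nuclei and 8 of the other hot water bath nuclei held 3 or more Spp1 UMIs, up to 55 and 19.

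Over all nuclei, log counts per 10000 of Col27a1 correlated with those of Lama1 at r = 0.49 in 271 SNI with brush nuclei and 0.54 in 422 hot water bath nuclei, and with those of Col12a1 at 0.48 and 0.57. Only these 2 of 630 member pairs reached 0.3 in both libraries, and the median pair lay at -0.0047 and -0.0040. Slc17a7 had 0.65 and 0.82 with Col27a1, 0.62 and 0.48 with Lama1, and 0.48 and 0.61 with Col12a1, though its UMIs also helped to set the class. Of all other genes with at least 100 UMIs in each library, Fam107b (0.75 and 0.63) was most like Col27a1, and Cpne9 (0.54 and 0.53) was among the 3 most like it. Fam107b also led for Col12a1 (0.61 and 0.43), followed by the transcription factor Nfib (0.41 and 0.47) and the guidance cue Sema3e (0.35 and 0.39). For Lama1 the 3 were Nfib (0.49 and 0.38), Fam163a (0.40 and 0.36) and the cadherin Cdh23 (0.33 and 0.48). All points share library and depth, and these values rest on few nuclei. The best partners of Col25a1 (Dab1, an adaptor of reelin signalling, 0.25 and 0.35), Col11a1 (Cdh12, 0.22 and 0.19) and Lama3 (Ttc39c, 0.14 and 0.34) were weak and are no finding. The same holds for partners of other members with values in that range, since each was picked as among the best of many genes.

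Lama1 gave 273 UMIs in SNI with brush nuclei and 154 in hot water bath nuclei. For 50% of them 9 nuclei (44.9 expected) and 15 nuclei (49.5 expected) sufficed, all 9 glutamatergic in SNI with brush, and 13 glutamatergic and 2 mixed in hot water bath. The highest held 24, 23 and 19 UMIs and 17, 8 and 7. Glutamatergic nuclei stood at 41.8 CPM and inhibitory ones at 7.06 CPM in SNI with brush, a log2 ratio of 2.54 (1.98 to 3.21), and at 12.5 and 2.80 CPM in hot water bath, 2.05 (1.00 to 3.63), from 126 and 6 UMIs. With transmitter UMIs of 1 kind only, the SNI with brush class ratios were 1.59 for Lama1 and 1.71 for Col27a1, still past 2-fold. Col12a1 had 8 nuclei (36.1 expected), 6 of them glutamatergic, and 2 nuclei (35.04 expected), both glutamatergic. Its highest hot water bath nucleus held 44 of 90 UMIs, and without it the observed number was 0.127 times the expected one, against 0.0309 with it. The Col12a1 class ratio was 1.91 (1.30 to 2.62) in SNI with brush and 0.74 (-0.20 to 1.99) in hot water bath, where the interval holds 0. With transmitter UMIs of 1 kind only it was 1.06 in SNI with brush.

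Col8a1, a short collagen that forms meshes under endothelia such as that of the cornea, was the other member at least 2-fold higher in glutamatergic nuclei of both libraries. Its 266 SNI with brush and 447 hot water bath UMIs gave glutamatergic and inhibitory levels of 31.2 and 11.7 CPM in SNI with brush (log2 ratio 1.40, 0.93 to 1.93), and of 32.1 and 9.79 CPM in hot water bath (1.68, 1.08 to 2.43). In SNI with brush 10 nuclei held 50% (44.4 expected), 8 glutamatergic, 1 inhibitory and 1 mixed, and in hot water bath 20 (80.9 expected), 14 glutamatergic, 1 inhibitory and 5 mixed. Nr4a2, a nuclear receptor, was most like it (r = 0.31 and 0.41), then Mei4 (0.30 and 0.37) and the transcription factor Creb5 (0.27 and 0.52). Col8a1 correlated with Col27a1 at 0.16 and 0.04 only. With transmitter UMIs of 1 kind only, its hot water bath class ratio was 0.96, just under 2-fold.

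**Figure D3:**
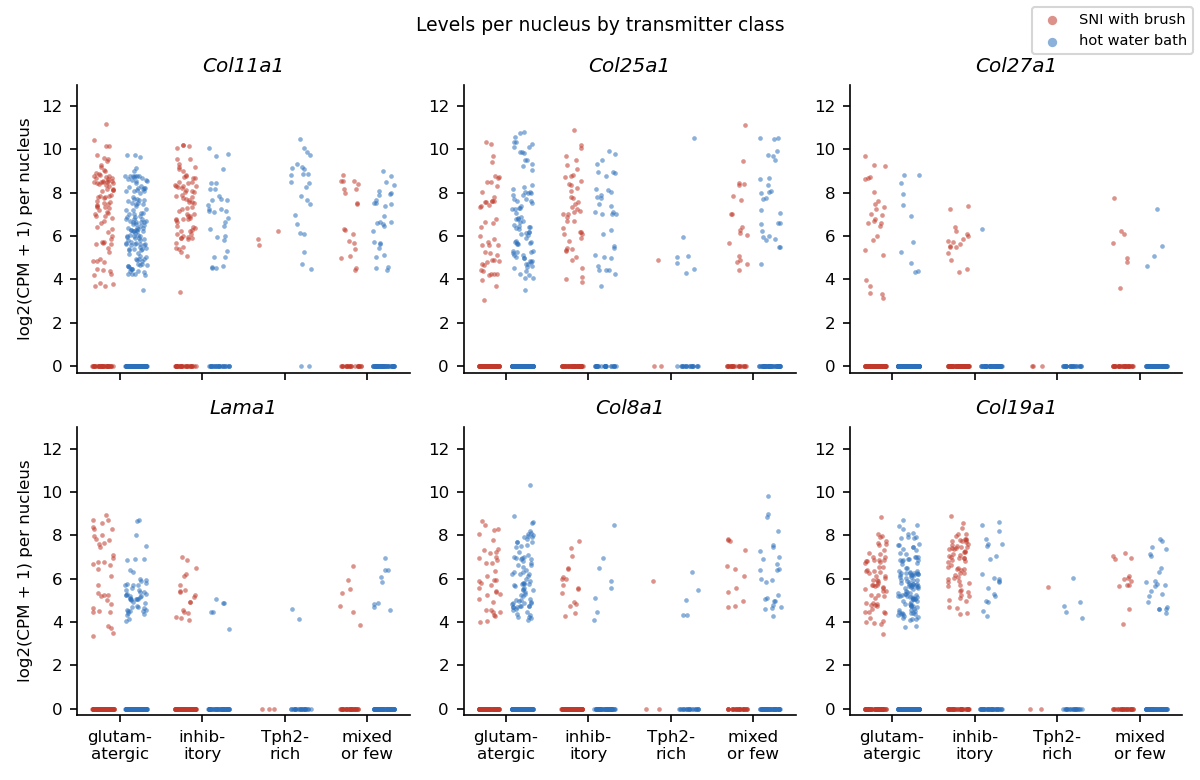
Each point is a nucleus, with log2(CPM + 1) of the gene on the y axis and the transmitter class on the x axis (SNI with brush red and left, hot water bath blue and right, 271 and 422 nuclei, spread sideways at random). High Col27a1 and Lama1 nuclei stand in the glutamatergic column, the highest Col11a1 nuclei of the hot water bath library are among its 26 Tph2-rich nuclei, of which 24 held a UMI, and Col25a1 and Col19a1 have high nuclei among glutamatergic and inhibitory ones alike.

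Few other members followed the class in both libraries. Among members with at least 20 UMIs over the 2 classes, 9 of 36 were at least 2-fold higher in glutamatergic than inhibitory nuclei in SNI with brush (2.79% of 15000 genes) and 10 of 35 in hot water bath (4.78% of 14762). In the other direction there were 3 of 36 (3.11%) and 4 of 35 (4.17%). With at least 50 UMIs these counts were 0 and 1, of fewer members read. The share of all genes at that minimum was not computed, so these 2 counts have no background. Of the 32 members readable in both, Col27a1, Lama1 and Col8a1 passed 2-fold toward glutamatergic nuclei in both, and 0 passed toward inhibitory nuclei, against 0.804% and 0.591% of 14049 genes. None passed 2-fold in opposite directions. The median log2 ratio was 0.088 and -0.077 for the members, and -0.075 and -0.026 for all genes. Col1a2, the second chain of type I collagen, had 29 SNI with brush UMIs in glutamatergic and 0 in inhibitory nuclei, so at least 6.27-fold more against a limit of 3 counts over the class. In hot water bath nuclei it had 23 and 4, at 2.28 and 1.86 CPM (log2 ratio 0.15, -1.26 to 2.28). Lama4, a vascular laminin chain, had 35 and 0 in hot water bath nuclei, at least 2.48-fold more, but 5 and 6 in SNI with brush nuclei, at 0.881 and 1.63 CPM.

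**Figure D4:**
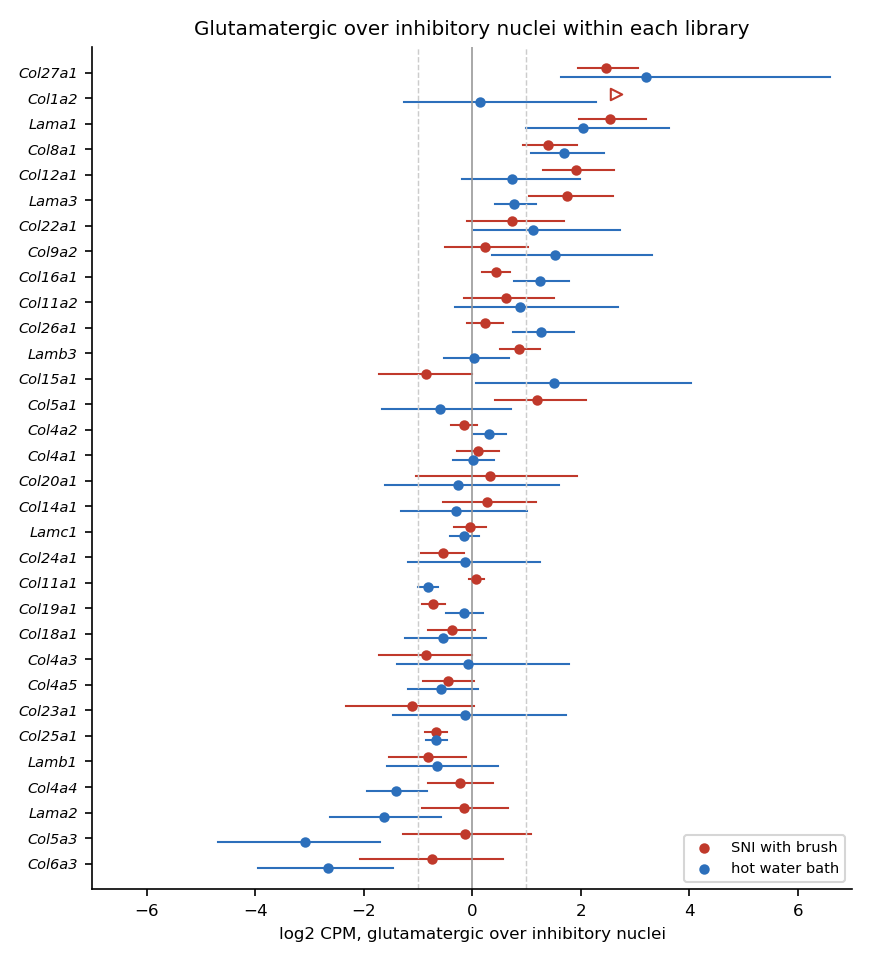
The x axis is the log2 ratio of CPM in glutamatergic over inhibitory nuclei for the 32 members with at least 20 UMIs over the 2 classes in each library (SNI with brush red and upper, hot water bath blue and lower), bars are exact 95% intervals for counting error, and the open triangle is the bound for Col1a2, which had 0 inhibitory UMIs. Dashed lines mark 2-fold; Col27a1, Lama1 and Col8a1 alone lie right of the line at 1 in both libraries.

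Col19a1, the collagen linked to inhibitory synapses, had high nuclei in both transmitter classes. It gave 740 UMIs in SNI with brush nuclei and 560 in hot water bath nuclei, and 25 (58.4 expected) and 27 (87.6 expected) nuclei held 50%. Of these, 12 were glutamatergic and 13 inhibitory in SNI with brush, and 18 glutamatergic, 7 inhibitory and 2 mixed in hot water bath. The class ratio was -0.71 (-0.93 to -0.50) in SNI with brush, at 59.9 and 98.3 CPM, and -0.15 (-0.47 to 0.19) in hot water bath, at 39.6 and 43.8 CPM, which with transmitter UMIs of 1 kind only was -0.53. Genes most like it were Syt2, a fast calcium sensor of synaptic vesicles (r = 0.40 and 0.37), the sodium channel Scn1a (0.34 and 0.33) and the junction gene Cgnl1 (0.33 and 0.32). The correlation of Col19a1 with the glycine transporter Slc6a5 was 0.30 and 0.22.

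Further fibril-associated and fibril-forming members followed, each with its own nuclei. Col16a1 gave 677 and 545 UMIs, with 16 nuclei (57.4 expected) and 35 (87.0 expected) for 50%. Glutamatergic nuclei led in both libraries, with log2 ratios of 0.43 (0.18 to 0.69) in SNI with brush and 1.25 (0.78 to 1.79) in hot water bath, and Myo16 (r = 0.30 and 0.28) and the nuclear receptor Esrrg (0.26 and 0.34) were most like it. Col24a1, a fibril collagen of bone, gave 239 UMIs with 7 nuclei (42.4 expected) in SNI with brush, and 56 UMIs with 9 nuclei (24.02 expected) in hot water bath, where its highest nucleus held 5. Both classes held such nuclei: the highest SNI with brush nuclei, with 28 and 26 UMIs, were glutamatergic and inhibitory.

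Col5a2, a chain of type V collagen, had most of its SNI with brush UMIs in few nuclei. Of 223 UMIs there, 73, 67 and 19 lay in 3 glutamatergic nuclei, and 2 nuclei held 50% (41.0 expected). Its class ratio of 2.96 (2.27 to 3.84) was 1.23 with transmitter UMIs of 1 kind only. The hot water bath library gave 21 UMIs in all, with at most 4 in a nucleus and 4 nuclei for 50% (9.92 expected). The rarer fibril member Col1a2 gave 32 and 31 UMIs, with 3 nuclei (13.5 expected) and 5 nuclei (14.2 expected). Without its highest nucleus its ratio was 0.272 against 0.166 in SNI with brush, and 0.486 against 0.298 in hot water bath. Col6a3, of the beaded filaments that link cells to matrix, gave 26 and 38 UMIs, with 4 (11.4 expected) and 6 (17.1 expected), and its highest nuclei, with 5 and 4 UMIs in each library, were all inhibitory. Col28a1, a collagen known from peripheral nerve in mice, gave 40 and 31 UMIs with 6 nuclei in each (16.2 and 14.2 expected).

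Of the basement membrane collagens, Col4a4, Col4a5 and Col18a1 were concentrated in both libraries. Col4a4 and Col4a5, chains of the kidney filter network, needed 12 SNI with brush nuclei each (30.7 and 33.7 expected), and 22 and 14 hot water bath nuclei (50.5 and 46.0 expected). Without its highest nucleus, which held 19 of 117 UMIs, Col4a4 moved to 0.505 in SNI with brush, just past the limit. Col4a4 was lower in glutamatergic than inhibitory hot water bath nuclei, at 7.93 and 20.97 CPM (log2 ratio -1.41, -1.95 to -0.84). In SNI with brush it stood at 10.0 and 11.7 CPM (-0.22, -0.81 to 0.39), and without the highest nucleus of each class the ratio was 0.50. Col18a1, the source of the fragment endostatin, gave 206 and 136 UMIs with 12 nuclei (39.3 expected) and 18 nuclei (46.2 expected), and its class ratios were -0.38 (-0.81 to 0.06) and -0.54 (-1.24 to 0.26).

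The type IV genes lie head to head in pairs. The annotated starts of Col4a1 (chr8:11198423-11312826, minus) and Col4a2 (chr8:11312805-11449287, plus) overlap by 22 bases, those of Col4a4 and Col4a3 on chromosome 1 lie 72 bases apart, and those of Col4a5 and Col4a6 on the X chromosome 1309. Over nuclei, Col4a1 and Col4a2 correlated at r = 0.39 in SNI with brush and 0.17 in hot water bath, Col4a4 and Col4a3 at 0.63 and 0.15, and Col4a5 and Col4a6 at 0.24 and 0.06. By the lower of the 2 values they ranked 10, 12 and 44 among the 630 member pairs. In these sparse counts the low values carry no finding.

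Among the laminins, Lama3 and Lamb3, partners in laminin-332 of skin, went different ways. Lama3 (ENSMUSG00000024421) gave 134 UMIs in SNI with brush nuclei and 729 in hot water bath nuclei, at 12.4 CPM (10.4 to 14.7) and 45.1 CPM (41.9 to 48.5). It needed 14 (31.6 expected) and 48 (94.8 expected) nuclei for 50%, 10 and 37 of them glutamatergic. Its ratios of 0.442 and 0.497 lie close to the limit, and without its highest nucleus they were 0.554 and 0.512. Glutamatergic nuclei led inhibitory ones by a log2 ratio of 1.74 (1.04 to 2.59) in SNI with brush and 0.78 (0.42 to 1.18) in hot water bath. Lamb3 gave 327 SNI with brush UMIs, of which 85, 62, 49 and 34 lay in 4 nuclei, 3 glutamatergic and 1 inhibitory, and the next nucleus held 8. In hot water bath it gave 208 UMIs with at most 19 in a nucleus and 21 nuclei for 50% (56.2 expected).

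Between the libraries, 14 of 47 members were at least 2-fold higher in SNI with brush nuclei and 2 at least 2-fold lower, against 16.7% and 3.55% of 17587 genes. The members' median log2 ratio was 0.70 and that of all genes 0.23. Scaling by size factors lowers all ratios by 0.25, and 9 members then pass 2-fold upward and 2 downward, against 11.2% and 5.9% of all genes so scaled. Of members with at least 100 UMIs, Col5a2 had the highest ratio, 3.96 (3.34 to 4.71), at 20.6 CPM in SNI with brush nuclei and 1.30 CPM in hot water bath nuclei. Col24a1 had 2.66 (2.25 to 3.12), at 22.1 and 3.47 CPM, Col27a1 2.02 (1.71 to 2.34), at 29.6 and 7.30 CPM, and Col12a1 1.57 (1.20 to 1.96), at 16.6 and 5.57 CPM. Lama1 (1.40), Lamb3 (1.23) and Col18a1 (1.17) were also past 2-fold. The Lamb3 ratio was 0.94 without the highest nucleus of each library, whereas Col5a2 had 3.69, and Col12a1 2.26. The markers of other cell types and the mitochondrial share, 0.493% and 0.149% of UMIs, were the larger ones in SNI with brush nuclei too, and their part in these ratios was not tested.

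Lama3 had the lowest ratio, -1.86 (-2.14 to -1.60), and the other member past 2-fold downward was Lama4 with -1.16 (-2.13 to -0.33) from 15 and 51 UMIs. Lama4 did not pass 2-fold without nuclei holding vascular markers (-0.89), with low-mitochondrial nuclei only (-0.93), with 5 UMIs added (-0.91) or by the mean CPM per nucleus (-0.88). Its mean of the ratios within the 2 classes was 0.53, the other direction, but this rests on 6 and 0 UMIs in inhibitory nuclei. In glutamatergic nuclei Lama4 had 5 and 35 UMIs, at 0.881 CPM in SNI with brush and 3.47 CPM in hot water bath, so it was lower in SNI with brush there. Lamc1 and Col4a1 had -0.46 each, at 45.6 and 62.6 CPM and at 25.8 and 35.6 CPM, and Col25a1 had -0.20 (-0.32 to -0.08). Fewer nuclei of a type and less RNA per nucleus cannot be told apart in such sums. Within glutamatergic nuclei alone, a comparison chosen after seeing the data, the ratios of Lama3 and Col27a1 were -1.66 (-1.99 to -1.35) and 2.17 (1.85 to 2.51). Col11a1 had 1.24 (1.11 to 1.37) there against 0.73 (0.64 to 0.83) over all nuclei, and 1.09 without Tph2-rich nuclei. Col5a2 had 5.21 (4.33 to 6.44), from 198 and 9 UMIs.

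**Figure D5:**
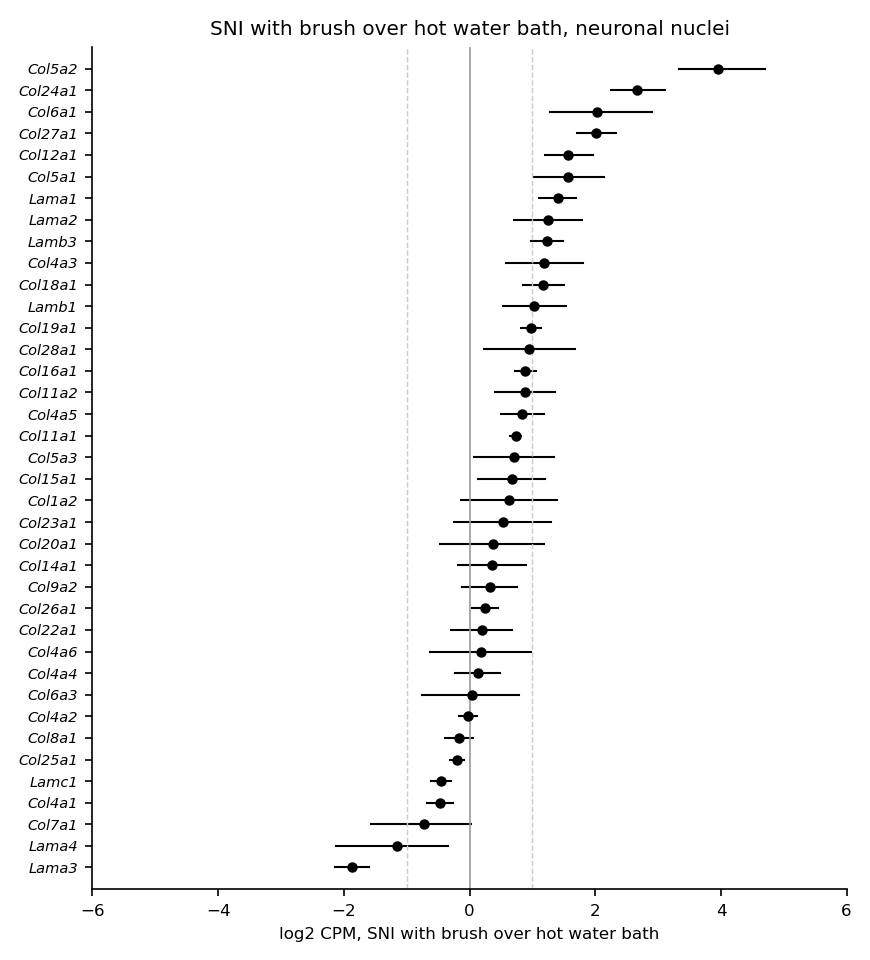
The x axis is the log2 ratio of CPM in SNI with brush over hot water bath neuronal nuclei for the 38 members with at least 50 UMIs over both, and bars are exact 95% intervals for counting error in 1 library per treatment. Dashed lines mark 2-fold; Col5a2 lies highest at 3.96, Lama3 lowest at -1.86, and Col4a2 at -0.03.

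Genes that receive, link or process collagens and laminins gave other values. Of a list of 53 such genes, 13 of 41 were concentrated in SNI with brush nuclei, 6 of 39 in hot water bath nuclei and 5 of 38 in both, against 10.9%, 7.08% and 5.18% of all genes, and their median ratios of observed to expected nuclei were 0.703 and 0.786. The 5 were Ntn1, a netrin with laminin-like domains that guides axons, Itga9, an integrin chain, Colgalt2, which adds sugar to collagen, and the proteases Tll1 and Adamts2, which trim procollagens. Adamts2 had log2 ratios of glutamatergic over inhibitory nuclei of 3.20 in SNI with brush and 3.87 in hot water bath, from 711 and 1371 UMIs. Its 50% sets were 0.296 and 0.439 times the expected number of nuclei.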

How the data were processed

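Nuclear RNA of sorted nuclei was measured in 1 library per treatment, each made from pooled hindbrains. Per the submitters' processing notes the reads went through Cell Ranger 5.0 with mm10, and Seurat was used; the sources used here name no version of it. The UMI counts per gene and nucleus were deposited by the authors, with 11298755 UMIs in the SNI with brush table and 16344606 in the hot water bath table. The tables list 288 and 425 of the 850 and 723 barcodes given beside them, and no source used here gives the rule that kept them.

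Filters of 500 genes and 5% mitochondrial UMIs removed no nucleus. Doublets were called with Scrublet in scanpy 1.11.5 (anndata 0.12.19), and nuclei with more liver-marker than neuron-marker UMIs were left out. Counts were summed per library and class and scaled to CPM, and log2 ratios carried 0.5 UMIs added to each sum. Correlations across nuclei used log counts per 10000. The random expectation was computed analytically for Poisson counts in proportion to depth, and intervals are exact at 95% (scipy 1.17.1, numpy 2.4.6, pandas 2.3.3, python 3.11.15, matplotlib 3.10.9). These intervals cover counting error only. The scripts were tested on simulated data.

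The members, lists and rules were chosen with earlier results of these data known. Members named one by one were those concentrated in both libraries, those with at least 1000 UMIs, and the 4 highest and 4 lowest library ratios among members with at least 100 UMIs, and other members named were chosen after their values were seen. For each concentrated member the 3 genes with the highest of the lower r are candidates for naming. Positions are from GENCODE vM21 on mm10, and the upstream windows from RefSeq on GRCm38.p6, which had 34 of 48 members. Alternatives changed doublets, liver-gene, vascular and mitochondrial filters, class rule, scaling, UMI minimum, depth and the nucleus with most UMIs. A few values that fall under these rules are not reported here.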

Additional observations from a re-analysis of the deposited data

Results flagged for a closer look

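Col5a2 and Col13a1 had class ratios of opposite sign in the libraries. The log2 ratio of glutamatergic over inhibitory nuclei for Col5a2 was 2.96 in SNI with brush and -1.89 in hot water bath, where it rests on 9 and 7 UMIs. For Col13a1, a membrane collagen, it was 3.90 and -3.13, from 11 and 0 UMIs in SNI with brush and 3 and 6 in hot water bath, and with so few UMIs the values are fitted with the added 0.5 UMIs. The difference between the libraries was not tested.

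The 15 nuclei of the SNI with brush library with more liver than neuron UMIs lay outside the comparisons, and 24 of 48 members had a UMI in them, at a median depth of 18631 UMIs. Col18a1 stood at 587 CPM there, against 19.02 CPM in the neuronal nuclei of that library, from 226 UMIs. Col27a1 stood at 208 CPM, against 29.6 CPM, from 80 UMIs, and Col5a3 at 64.96 CPM, against 4.34 CPM, from 25 UMIs. A count of 0 allows up to 7.80 CPM. No liver-gene nucleus was found in the hot water bath library.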

How the results depend on the processing

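Of the alternative values of the member counts, 85 stayed within 1.5 times the count in the report and 20 did not. Of those of the members described one by one, 350 stayed within 1.5 times the concentration ratio or within the interval of the log2 ratio, and 68 did not. No such ratio past 2-fold changed sign, but smaller ones did, as the SNI with brush class ratio of Col4a4 (-0.22), which was 0.83 with transmitter UMIs of 1 kind only. Lama4 was not among these members, and its library ratio of -1.16 became 0.53 by the mean of the ratios within the 2 classes. The concentrated members (28 in SNI with brush, 23 in hot water bath, 19 in both) were 13, 5 and 4 at a ratio of at most 0.25 (4.12% and 1.63% of all genes in the 2 libraries). They were 13, 4 and 4 by the number of nuclei with a UMI (3.36% and 1.63%), and 13, 3 and 3 with nuclei thinned to 9000 UMIs (4.67% and 2.8%). Fewer members and genes could be read after thinning, 21 and 16 members, and most of the 16 in hot water bath were not concentrated. Members at least 2-fold higher in inhibitory nuclei of SNI with brush (3) were 1 with low-mitochondrial nuclei only, 0 at 50 UMIs and 5 by the mean CPM per nucleus, and in hot water bath (4) 1 without the highest nucleus of each class and 1 at 50 UMIs. Members at least 2-fold higher in SNI with brush (14) were 9 with size factors. Those at least 2-fold lower (2) were 1, Lama3, without vascular-marker nuclei, with low-mitochondrial nuclei only, at 100 UMIs, with 5 UMIs added and by the mean CPM per nucleus. Fewer members were read in some of these settings, and the cause of the changes was not tested. No share of all genes was computed for the alternative counts in both libraries or for those by class. Alternatives chosen after seeing the data left out nuclei with 10 or more liver UMIs, which moved no described member so far, or Tph2-rich nuclei, which moved the library ratios of Col11a1 (0.73) to 1.09 and of Col5a3 (0.70) to 1.42 and the hot water bath concentration of Lama3 (0.497) to 0.505, past the limit. The library ratios within glutamatergic nuclei alone were also chosen after seeing the data. No paired analysis was possible because each treatment has 1 library. Members under 20 UMIs in a library could not be called at this depth.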
